A study of Mus musculus with 14 samples.

Results

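Gene expression was compared between control myeloid progenitors (MyePro) and control LSK cells of mouse bone marrow, 2 of the 14 samples of a study of Dpy30 loss in blood formation. LSK cells are lineage-negative cells with Sca-1 (encoded by Ly6a) and Kit on their surface. The fraction holds the hematopoietic stem cells and the multipotent progenitors. MyePro cells are the progenitors that come after them on the way to granulocytes, monocytes, red cells and megakaryocytes, and the labels name the population without giving its sorting gate.

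Both control libraries came from cells with the genotype Mx1-Cre; Dpy30F/+, that is, with the Mx1-Cre transgene, 1 floxed Dpy30 allele and 1 wild-type allele. Donor marrow (CD45.2+) was mixed with competitor marrow of C57Bl/6J mice (CD45.1+) and given to irradiated CD45.1+ recipients. Starting 7 weeks later these mice had 4 doses of pIpC (7.5 µg/g each), a double-stranded RNA that drives an interferon response and through it the Mx1 promoter of the Cre. Marrow was taken 2 weeks after the last injection and pooled from 2 to 3 chimeric mice per library. The control cells thus shared with the KO cells (Mx1-Cre; Dpy30F/-, 1 floxed and 1 null allele) the Cre, the transplantation, the pIpC and a floxed allele that Cre can delete. The labels do not say whether LSK and MyePro cells were gated for donor origin. RNA passed 2 rounds of polyA selection and was not amplified.

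There was 1 library per population, so that no value below has a replicate error and no test was made. Levels are in CPM, counts scaled to a common library size with TMM factors. The ratio is the log2 of MyePro over LSK, with a prior count of 2 that damps ratios of low genes, and a gene entered when its CPM averaged 5 or more. Of 38926 entries in each file, 10074 genes passed, 150 of them within 10% above that limit, and 149 genes lay within 10% below it. Intervals on log2 ratios are 95% intervals for counting error only, at 14974432 gene counts in LSK and 20820762 in MyePro. They say nothing of the spread between mice. In sorted populations, fewer cells of a type and less RNA per cell cannot be told apart. A gene near 0 in 1 library enters the comparison only where it is high in the other, so list counts below cover only the members that passed, and are not counts of all members.

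Blood formation is governed by transcription factors that act in opposition. HLF, MECOM and MEIS1 maintain the stem cell state, PU.1 (encoded by Spi1) and the C/EBP factors drive granulocytes and monocytes, and GATA1 with KLF1 drives red cells. Myeloid progenitors fill primary granules with proteases such as neutrophil elastase, and erythroid progenitors turn on heme synthesis and membrane proteins before globin reaches its final level.

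The promoters of 4 of the genes described below were picked because they carry certain core letters close to the start site. These are letters that PU.1 can bind, in a pair of granule protease genes, and that GATA factors can bind, in a pair of red cell genes. Binding at these promoters was not tested. The neighbours Elane and Prtn3 encode proteases of the same granule, Epor the erythropoietin receptor and Rhd a red cell membrane protein. Each line gives the 120 bases before the start site, read 5′ to 3′ on the gene's strand from the RefSeq promoters of GRCm38.p6, with the match in capitals (GAGGAA for PU.1, AGATAA or its reverse complement TTATCT for GATA factors). Elane lies at chr10:79886192-79886311 (+), Prtn3 at chr10:79879547-79879666 (+), Epor at chr9:21963577-21963696 (-) and Rhd at chr4:134864416-134864535 (+).
Elane: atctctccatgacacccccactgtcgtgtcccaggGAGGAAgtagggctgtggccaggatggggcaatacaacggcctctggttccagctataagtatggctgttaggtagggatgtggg
Prtn3: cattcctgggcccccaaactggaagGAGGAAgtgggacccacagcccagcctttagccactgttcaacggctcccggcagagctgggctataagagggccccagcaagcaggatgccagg
Epor: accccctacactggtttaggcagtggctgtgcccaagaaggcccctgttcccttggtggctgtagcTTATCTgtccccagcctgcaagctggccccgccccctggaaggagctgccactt
Rhd: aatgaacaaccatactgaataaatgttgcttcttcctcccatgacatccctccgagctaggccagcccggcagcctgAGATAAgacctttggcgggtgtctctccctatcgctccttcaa

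The match begins 85 bases before the start in Elane, 95 in Prtn3, 54 in Epor and 43 in Rhd. Over windows from 250 bases before to 50 after the start, searched on both strands, GAGGAA was in 12 of 25 promoters of the primary granule list (48.0%) against 28.3% of all 32851 promoters in the table. GAGGAA was as frequent in other lists, with 57.9% in the late neutrophil list, 53.3% in the T, NK and B cell list and 11 of 22 promoters in the monocyte list. AGATAA was in 11 of 31 promoters of the red cell list (35.5%) against 11.2% of all, and in 52.9% of those of the mast cell, basophil and eosinophil list. The letters TTGCNNAA, read by C/EBP factors, were in 9 of the 25 granule promoters (36.0%) against 10.8% of all, and AGATAA was in 0 of them. Promoters of the genes that passed the filter held GAGGAA in 26.7%, AGATAA in 6.20% and TTGCNNAA in 8.27%. In genes at least 2-fold higher in MyePro the shares were 29.1%, 10.6% and 11.6%, and in genes at least 2-fold lower 30.1% and 10.2%, with TTGCNNAA in 64 of 674. A match describes the letters and says nothing of binding. GAGGAA and AGATAA can overlap by a base, and each was counted on its own.

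At a 2-fold difference, 319 genes (3.17%) were higher in MyePro and 692 (6.87%) were lower, and the median log2 ratio of all 10074 genes was 0.08. Most genes were close in level: 7754 (77.0%) lay within 1.5-fold. In either direction 1011 genes (10.0%) differed. The shares of 3.17% and 6.87% are the ones to set beside the list counts below. The lower side also reached further. At least 4-fold separated 71 higher and 169 lower genes, and at least 8-fold 5 higher and 45 lower genes. With counting error, the interval lay wholly past 2-fold for 227 higher and 480 lower genes. Within 0.1 log2 units of the 2-fold line there were 71 genes just under it and 52 just past it on the higher side, and 116 and 97 on the lower side.

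**Figure D1:**
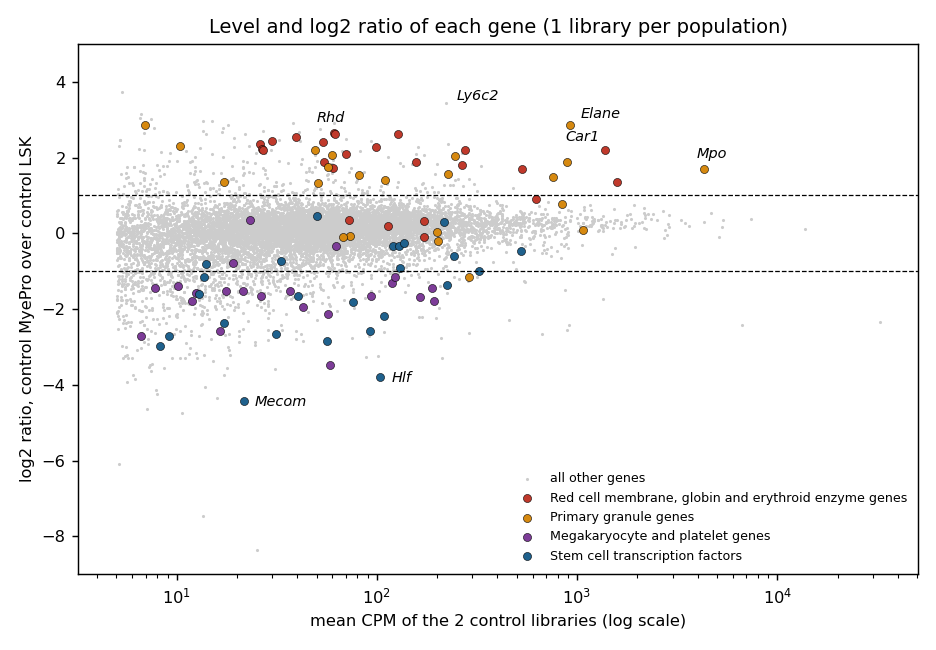
Log2 ratio of control MyePro over control LSK (vertical axis) against the mean CPM of both libraries (horizontal, log scale) for the 10074 genes, 1 point per gene, with 4 gene lists in colour and dashed lines at 2-fold. Red cell and primary granule genes such as Rhd (2.64) and Elane (2.85) lie above the upper line, and stem cell and megakaryocyte genes such as Mecom (-4.42) and Itga2b (-1.78) below the lower line.

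The sorting markers came first, as a check of the labels. Ly6a was at 31.5 CPM in LSK and 4.87 CPM in MyePro (log2 ratio -2.66), in the direction of the sort on Sca-1. Kit, the stem cell factor receptor present on both populations, was at 491 and 403 CPM (-0.28). Dpy30 was at 78.0 CPM in LSK and 116 CPM in MyePro (0.57, interval 0.47 to 0.68), so both control populations held its transcript. Some defining markers of mature and stromal cells were near 0 in both libraries, while antibody, dendritic cell and endothelial genes described further on were not near 0 in LSK. Cd3e had 0 and 1 counts, Ncr1 5 and 0, Pax5 2 and 5, Ly6g 0 and 0, Cdh5 9 and 4, Lepr 0 and 2. The macrophage markers C1qa and Csf1r, given further on, were not near 0 in LSK either. The neutrophil marker S100a8 had counts in MyePro only, and the stromal marker Col1a1 had counts in both.

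The transcription factors of the stem cell state were lower in MyePro. Of 32 listed factors 25 passed the filter. At the 2-fold line 15 were lower (60.0%, against 6.87% of all genes) and 0 higher, and the median of the 25 was -1.37. Mecom, needed for stem cell maintenance (GRCm38.p6 chr3:29951296-30509759), was at 41.5 CPM in LSK and 1.79 CPM in MyePro, a ratio of -4.42 (interval -5.07 to -4.04). Hlf, a marker and regulator of stem cells (chr11:90336535-90390917), went from 194 to 13.9 CPM (-3.79, interval -3.99 to -3.62). In MyePro Mecom stood at 4.33% of its LSK level and Hlf at 7.17%.

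A second tier was 4- to 8-fold lower. Meis1, a homeodomain partner of HOXA9, was at 159 CPM in LSK and 26.3 CPM in MyePro (-2.58). Gata3 (-2.98), Myct1 (-2.83), Hoxa10 (-2.72), Mycn (-2.65) and Hmga2 (-2.36) had ratios of the same size. Erg (-1.81), Sox4 (-1.65), Zfp521 (-1.61), Msi2 (-1.37) and Prdm16 (-1.15) were lower by less, and Etv6, at 433 and 216 CPM, lay on the 2-fold line.

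The other members of the list that passed were within 2-fold. Runx1, required for the origin of blood cells, was at 144 CPM in LSK and 114 CPM in MyePro (-0.34). Gata2 (-0.59), Lmo2 (-0.46), Lyl1 (-0.34) and Nfix (-0.27) had negative ratios too, and those of Hoxa9 (-0.73), Hoxa7 (-0.81) and Fli1 (-0.91) were closer to 2-fold. Tal1 (0.30) and Mllt3 (0.45) had positive ratios. Of the 7 factors under the filter, Nkx2-3 had 96 counts in LSK and 1 in MyePro, while Hoxb4 had 40 and 81.

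Surface and signature genes of stem cells showed the same side. Of 38 listed genes 32 passed, 25 were at least 2-fold lower (78.1%, against 6.87% of all genes) and 1 was higher. The median of -1.88 was the lowest of the 35 lists. Esam, an adhesion molecule of endothelium and stem cells, had 302 counts in LSK and 12 in MyePro (20.5 and 0.615 CPM, -4.75). Procr, the protein C receptor used to sort stem cells, was at 13.9 and 0.974 CPM (-3.64). Ltb (-4.13), Tek (-2.71) and Trpc6 (-2.71) were also among the lowest. The member that was higher was Gstm1, a glutathione transferase that the granule list also holds, at 114 CPM in LSK and 337 CPM in MyePro (1.57). Cd34, which marks multipotent and early myeloid progenitors, was at 762 and 319 CPM (-1.26).

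Most receptors for cytokines and growth factors were within 2-fold, 19 of the 29 that passed. Of 33 receptors 29 passed, 3 were at least 2-fold higher (10.3%, against 3.17% of all genes) and 7 lower (24.1%, against 6.87%). The median was -0.23. Flt3, the receptor of multipotent and lymphoid-primed progenitors, was at 123 CPM in LSK and 31.2 CPM in MyePro (-1.97). Tek, Il1r1 (-2.21), Acvr1b (-1.55), Tgfbr2 (-1.26) and Il2rg (-1.09) were also among the lower members.

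The 3 receptors on the higher side were those for erythropoietin, for CSF1 and for interferon gamma. Epor was at 27.8 CPM in LSK and 92.8 CPM in MyePro (1.73), Csf1r at 29.8 and 89.4 CPM (1.58) and Ifngr1 at 199 and 431 CPM (1.11). The granulocyte receptor Csf3r had a negative ratio within 2-fold (-0.58), at 96.2 and 64.3 CPM. The shared beta chain Csf2rb (0.07) and the IL-3 receptor alpha chain Il3ra (-0.07) were near equal.

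**Figure D2:**
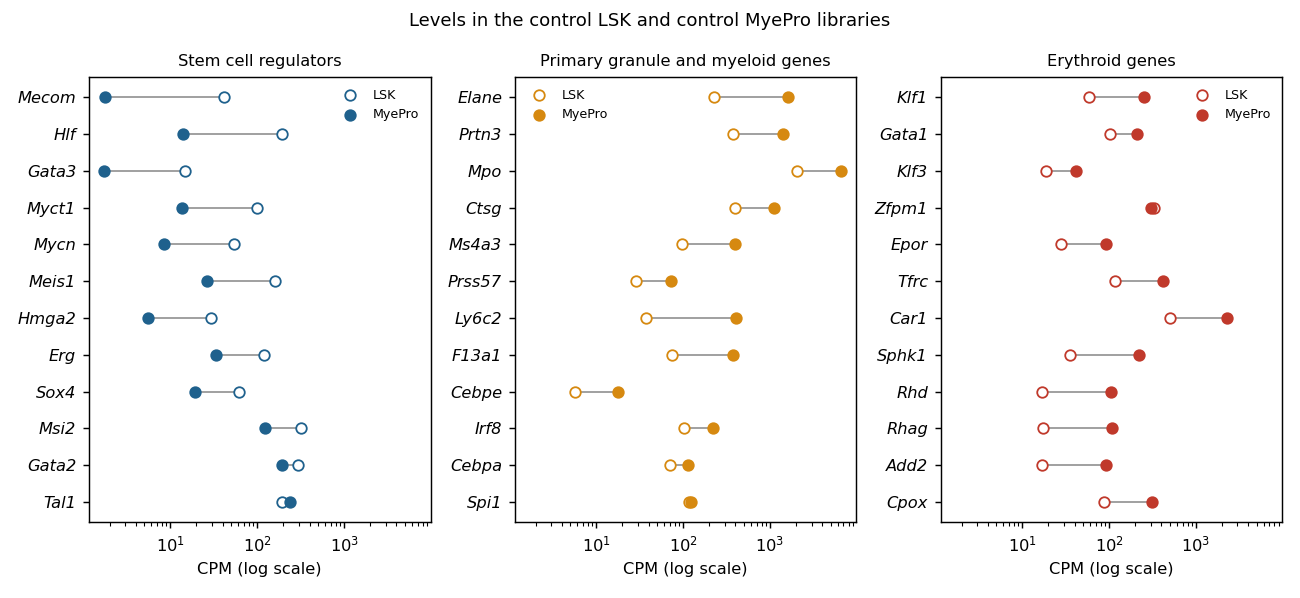
CPM on a log scale in the control LSK library (open points) and the control MyePro library (filled points) for 12 genes in each of 3 groups, with a line joining the pair of values. Stem cell regulators lie lower in MyePro except Tal1, and granule and erythroid genes higher except Spi1 (116 and 123 CPM, near equal) and Zfpm1 (328 and 304 CPM).

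Most lymphoid genes had negative ratios, 14 of the 18 that passed. Of 28 listed genes 18 passed, 8 were at least 2-fold lower (44.4%, against 6.87% of all genes) and 0 higher (median -0.80). Dntt, the terminal transferase of early lymphoid cells, was at 57.0 CPM in LSK and 4.61 CPM in MyePro (-3.59). Gimap6 (-2.85), Gimap1 (-2.82) and the T cell kinase Lck (-2.72) were also lower. Cnn3, a calponin, had the highest ratio (0.84), and Ikzf1, a factor of lymphoid and erythroid cells, was also positive (0.48). Il7r was under the filter with 34 and 11 counts.

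Most genes of the primary granule list were higher in MyePro. The list also holds myeloid genes whose products are not granule proteins, such as Gstm1, so its counts are not of granule proteins alone. All 22 listed genes passed, 15 were at least 2-fold higher (3.17% of all genes were) and 1 was lower, with a median of 1.52. Neutrophil elastase, Elane (gene at chr10:79886312-79888216), was at 225 CPM in LSK and 1618 CPM in MyePro (2.85, interval 2.80 to 2.90). Its neighbour Prtn3, proteinase 3, was at 379 and 1399 CPM (1.88). Myeloperoxidase, Mpo, was at 2028 and 6546 CPM (1.69) and cathepsin G, Ctsg, at 397 and 1119 CPM (1.49).

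The genes of this list together took 0.595% of gene counts in LSK (exact binomial interval 0.5912 to 0.599) and 1.4% in MyePro (1.397 to 1.407). Further members past 2-fold were Dmkn (2.87), Clec5a (2.29), Igsf6 (2.19), Fcgr3 (2.06), Ms4a3 (2.05), Anxa3 (1.76), Hdc (1.55), Cst7 (1.41), Mgst1 (1.36) and Prss57 (1.33). Lysozyme, Lyz2, went the other way, at 396 CPM in LSK and 179 CPM in MyePro (-1.14). Lyz2 is also a gene of macrophages and has a close copy that could share its reads, and the part of either was not tested. Serpinb1a (-0.20), Sirpa (-0.10), Ctsc (-0.08), Nkg7 (0.03), Srgn (0.10) and Plac8 (0.78) were within 2-fold. The sign of Nkg7 turned with library totals (-0.04) and with upper-quartile factors (-0.02).

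Genes of later neutrophils were hardly present. Of 20 listed genes 16 did not pass the filter, and 10 of those were under 1 CPM in both libraries. S100a8, an alarmin of neutrophils, had 0 counts in LSK and 183 in MyePro, at least 46.0-fold higher against a floor of 3 counts per library. Ltf had 12 and 2 counts, Ngp 8 and 6 and Camp 5 and 0. Pglyrp1, at 14.3 and 29.8 CPM (1.05, and 0.99 with library totals), and Lcn2 (0.60) passed with positive ratios. Padi4, which citrullinates histones, was at 69.4 CPM in LSK and 18.0 CPM in MyePro (-1.94).

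The myeloid transcription factors differed less than the genes of the granule list. Of 23 listed factors 21 passed, 5 were at least 2-fold higher (23.8%, against 3.17% of all genes) and 1 lower (4.76%, against 6.87%). The median was 0.19, with 12 positive and 9 negative ratios. Spi1, which encodes PU.1, was at 116 CPM in LSK and 123 CPM in MyePro (0.08, interval -0.01 to 0.17). Cebpa, the factor that opens the granulocyte and monocyte path, was at 69.9 and 115 CPM (0.71, interval 0.61 to 0.82). Gfi1 (0.66) and Cebpb (0.96) were within 2-fold too.

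The 5 factors past 2-fold were Cebpe (1.60), Klf4 (1.57), Trib2 (1.35), Cebpd (1.33) and Irf8 (1.11). Cebpe, which drives granule maturation, was at 5.71 CPM in LSK and 17.6 CPM in MyePro, and Irf8, of monocytes and dendritic cells, at 104 and 223 CPM. Id2 was the lower one (-1.39).

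The monocyte, macrophage and dendritic list divided within itself. Of 28 genes 24 passed, 8 were at least 2-fold higher (33.3%, against 3.17% of all genes) and 10 lower (41.7%, against 6.87%). The median was -0.71. The higher side held genes of monocytes. Ly6c2, the Ly6C antigen (chr15:75108161-75112066), was at 37.5 CPM in LSK and 406 CPM in MyePro (3.43), the highest ratio of the named set described further on; near-identical Ly6 genes could share its reads. The transglutaminase F13a1 was at 73.9 and 377 CPM (2.35), and Ly86 (2.11), Ccr2 (1.43) and Ms4a6c (1.34) were also higher.

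The lower side held the MHC class II genes and markers of macrophages and dendritic cells. Cd74, the invariant chain, was at 384 CPM in LSK and 38.7 CPM in MyePro (-3.30). H2-Aa (184 and 19.4 CPM, -3.24), H2-Eb1 (159 and 16.5 CPM, -3.26) and H2-Ab1 (276 and 59.3 CPM, -2.22) went with it. Xcr1, a receptor of cross-presenting dendritic cells, was at 18.9 and 1.79 CPM (-3.29), and their factor Batf3 had 11 and 3 counts. The macrophage genes C1qb (-1.54), Lgals3 (79.7 and 28.1 CPM), C1qa (-1.39) and Cd14 (-1.27) were lower by less. The part of mature cells in these values was not tested.

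Red cell genes were higher in MyePro, with a median of 2.14, the highest of the 35 lists. Of the 35 genes named 32 were found and 24 passed. At least 2-fold higher were 19 (79.2%, against 3.17% of all genes), and 0 were lower (against 6.87%). Rhd (chr4:134864536-134896172) was at 16.8 CPM in LSK and 106 CPM in MyePro (2.64, interval 2.46 to 2.85), and its partner Rhag at 17.2 and 107 CPM (2.62). Beta adducin, Add2, was at 17.1 and 91.1 CPM (2.41). Carbonic anhydrase 1, Car1, was at 496 and 2266 CPM (2.19). Cldn13 (2.55) and the sphingosine kinase Sphk1 (2.62) were near the top as well. The list's share of gene counts was 0.305% in LSK and 0.852% in MyePro.

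Globin itself was low in both libraries. Hba-a1 had 12 counts in LSK and 69 in MyePro, Hbb-bs 30 and 47 and Hbb-bt 78 and 32. The anion exchanger Slc4a1, of late erythroblasts, had 3 and 8 counts, and Alas2, the erythroid form of the first heme enzyme, 3 and 14. Globin genes are near-identical copies, so their reads cannot be assigned with certainty.

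Among the erythroid transcription factors, all 15 passed, 3 were at least 2-fold higher and 0 lower (median 0.30). Klf1, the factor of red cell genes (chr8:84901982-84905291), was at 59.1 CPM in LSK and 253 CPM in MyePro (2.10, interval 2.00 to 2.21). Gata1 was at 102 and 212 CPM (1.05, and 0.98 with library totals), and Klf3 had a ratio of 1.11. Zfpm1, the cofactor of GATA1, was at 328 and 304 CPM (-0.11).

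Heme and iron genes stood higher as a group. Of 24 genes 23 passed, 13 were at least 2-fold higher (56.5%, against 3.17% of all genes) and 1 lower (4.35%, against 6.87%). The median was 1.10. Cpox, of the later heme pathway, was at 87.6 CPM in LSK and 314 CPM in MyePro (1.84). The transferrin receptor Tfrc was at 118 and 413 CPM (1.81), the iron exporter Slc40a1 at 22.4 and 75.6 CPM (1.75) and Alas1 at 99.2 and 293 CPM (1.56). Heme oxygenase, Hmox1, was the lower member, at 43.2 and 14.2 CPM (-1.59).

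Genes of megakaryocytes and platelets were lower in MyePro. Of 28 genes 22 passed, 19 were at least 2-fold lower (6.87% of all genes were) and 0 higher, with a median of -1.56. Integrin alpha IIb, Itga2b, was at 300 CPM in LSK and 87.1 CPM in MyePro (-1.78), and platelet factor 4, Pf4, at 142 and 45.5 CPM (-1.64). Von Willebrand factor, Vwf, which also marks platelet-biased stem cells, was at 92.9 and 21.3 CPM (-2.12). Mmrn1 (-2.58), Selp (-1.94), Gp1bb (-1.79) and Gp9 (-1.58) were lower as well. Serpine2 was the 1 member with a positive ratio (0.36). The red cell and the megakaryocyte list, both of which GATA1 acts on, stood on different sides.

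Genes of mast cells, basophils and eosinophils were higher or near equal. Of 20 genes 11 passed, 6 were at least 2-fold higher (54.5%, against 3.17% of all genes) and 0 lower (against 6.87%). The median was 1.00. The eosinophil granule proteins Prg2 (14.2 CPM in LSK and 107 CPM in MyePro, 2.90), Prg3 (9 and 197 counts, 3.74) and Epx (5.64 and 24.4 CPM, 2.09) led the list. Il1rl1, the IL-33 receptor, was at 25.3 and 65.7 CPM (1.37). The basophil proteases Mcpt8 (0.97) and Prss34 (0.71) were within 2-fold.

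**Figure D3:**
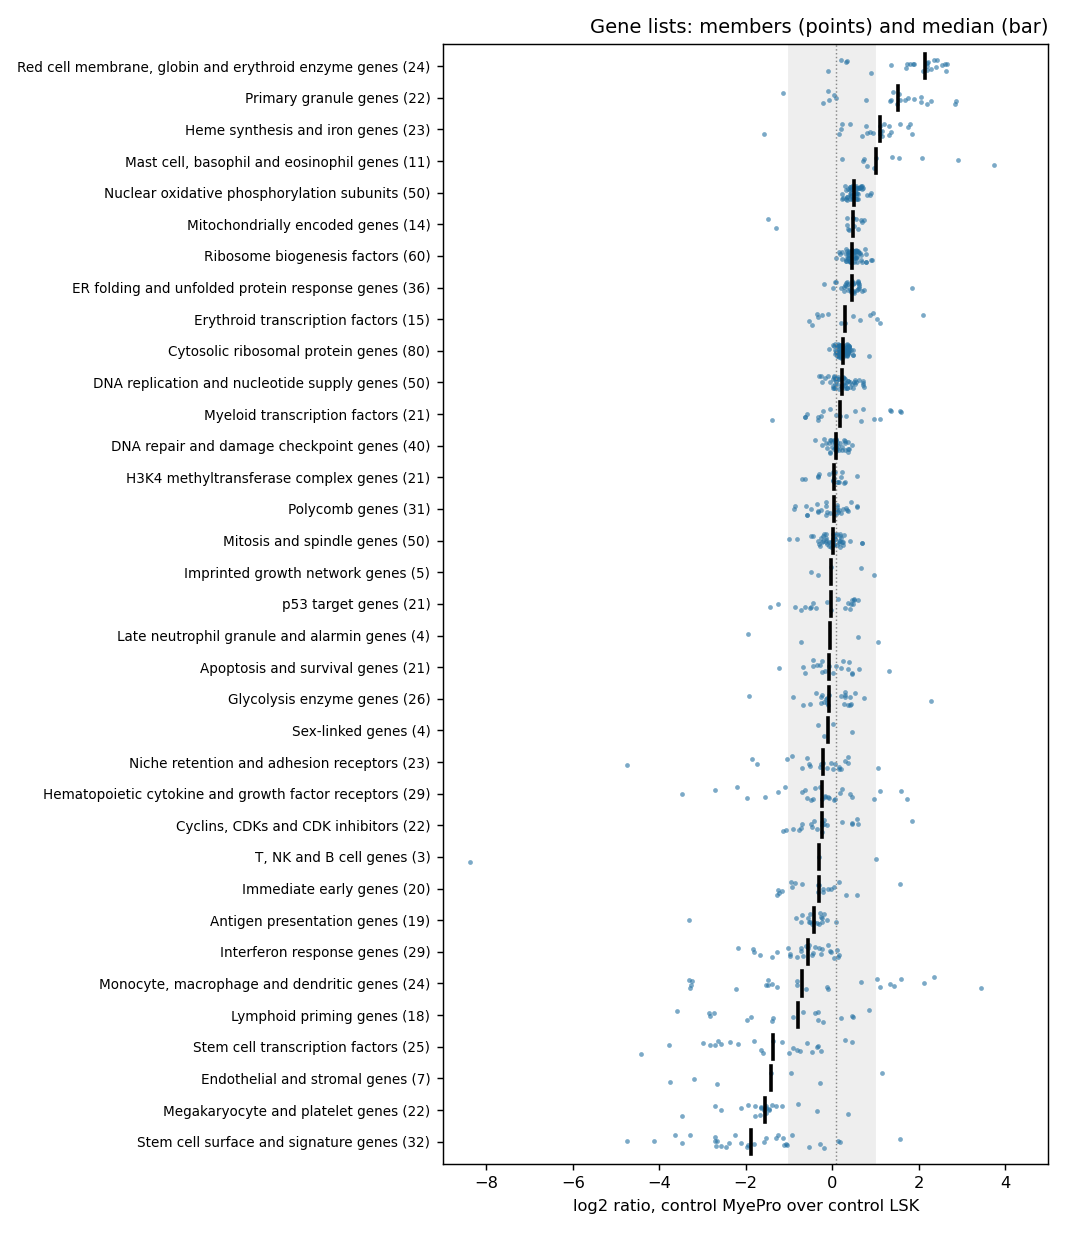
Log2 ratio of control MyePro over control LSK for the members that passed in each list (points, scattered vertically only for display) with the median as a black bar, lists ordered by median, the number of members in brackets, the range within 2-fold shaded and the median of all genes (0.08) dotted. Red cell genes (2.14) and primary granule genes (1.52) are at the top, and megakaryocyte (-1.56) and stem cell surface genes (-1.88) at the bottom.

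Genes of cell growth had small, mostly positive ratios, where 57.9% of all genes were positive. All 60 ribosome biogenesis factors had positive ratios, from 0.08 to 0.91, and 0 of them reached 2-fold, against 10.0% of all genes. Their median was 0.47, against 0.08 over all genes and 0.20 in the most highly expressed of 4 equal groups of genes. Nucleophosmin, Npm1, was at 1427 CPM in LSK and 2417 CPM in MyePro (0.76). All 50 nuclear oxidative phosphorylation subunits were positive too, from 0.22 to 0.89 (median 0.50). Of 80 cytosolic ribosomal protein genes 79 were positive, with a median of 0.24 (0.17 with library totals and 0.19 with upper-quartile factors), near the 0.20 of the most highly expressed of 4 equal groups of genes.

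Of 38 genes of protein folding in the endoplasmic reticulum and of the unfolded protein response 36 passed and 35 were positive (median 0.45). Only 1 reached 2-fold (2.78%, near the 3.17% of all genes on the higher side). That was Asns, the asparagine synthetase induced by ATF4, at 57.0 and 205 CPM (1.84). Of 27 glycolysis enzymes 26 passed, with a median of -0.08. Pklr, the pyruvate kinase of red cells and liver, was at 33.7 and 164 CPM (2.28), and Aldoc at 11.2 and 2.82 CPM (-1.94). Gapdh, a gene with many processed copies that could share its reads, was at only 37.5 and 31.3 CPM.

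The cell cycle genes were near equal in both populations. None of the 50 mitosis and spindle genes reached 2-fold, against 10.0% of all genes in either direction. Ratios were positive in 29. The median of 0.02 turned to -0.05 with library totals and to -0.03 with upper-quartile factors. Their most distant member was Cep55 (-0.99). None of the 50 replication genes reached 2-fold either, and 44 had positive ratios (median 0.24), with Dut (0.74) the highest. Of 25 cyclins, kinases and inhibitors 22 passed. At least 2-fold higher were 4.55% and lower 9.09%, near the 3.17% and 6.87% of all genes. Ccne1, cyclin E1, was the 1 higher by 2-fold, at 25.8 CPM in LSK and 92.2 CPM in MyePro (1.83). Cdkn2d (-1.13) and Ccng2 (-1.07) were the lower ones. Cdkn1c, which encodes the quiescence inhibitor p57, was under the filter with 67 and 16 counts. Of 27 apoptosis and survival genes 21 passed, 1 was higher and 1 lower by 2-fold (median -0.07). Each side was 4.76%, against 3.17% and 6.87% of all genes. The lower one was Bcl2l1, which encodes the survival protein BCL-XL, at 42.4 and 17.8 CPM (-1.24).

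Interferon response genes were lower or near equal 2 weeks after pIpC. Of 36 genes 29 passed, 7 were at least 2-fold lower (24.1%, against 6.87% of all genes) and 0 higher. Negative ratios were found in 25, and the median was -0.56. Ifi44 was at 8.90 CPM in LSK and 1.84 CPM in MyePro (-2.18), and Oas3 (-1.84), Oasl2 (-1.82), Iigp1 (-1.68) and Gbp2 (-1.38) were also lower. Ly6e, at 1266 and 1410 CPM, had the highest ratio (0.16). Antigen presentation genes had negative ratios in 18 of 19 (median -0.41), with Cd74 the only member past 2-fold; H2-K1 was at 1784 and 1221 CPM (-0.55). Of 27 immediate early genes 20 passed, of which Dusp1 (-1.29), Btg2 (-1.25), Ier3 (-1.22) and Dusp2 (-1.16) were lower and Klf4 higher.

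Chromatin regulators differed little, as did most genes (77.0% of all genes lay within 1.5-fold and 10.0% were past 2-fold). None of the 21 H3K4 methyltransferase complex genes reached 2-fold (median 0.05, and -0.02 with library totals). Their range ran from Kmt2a, at 68.5 CPM in LSK and 41.9 CPM in MyePro (-0.71), to Dpy30. Among 31 polycomb genes, with a median of 0.04 (-0.03 with library totals, -0.01 with upper-quartile factors and below 0 with the lower filters), the range ran from Phc1 (-0.89) to L3mbtl2 (0.58). The 40 DNA repair genes had a median of 0.08, the same as all genes. Of 30 p53 targets 21 passed, and 2 were lower by 2-fold (9.52%, near the 6.87% of all genes), with a median of -0.04. Of 18 imprinted genes 5 passed, with a median of -0.03. The 28 niche and adhesion receptors had 23 that passed, 1 higher (4.35%, against 3.17% of all genes) and 4 lower (17.4%, against 6.87%). Their median was -0.21. Gpr56 was at 2073 and 621 CPM (-1.74), Cxcr4 at 160 and 197 CPM (0.30).

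Over all genes that averaged 10 CPM or more and met the naming rule, the 20 highest ratios ran from 2.53 to 3.43. Of these, 4 were in the erythroid, red cell or heme lists, which had 15, 24 and 23 of the 10074 genes that passed. After Ly6c2 came Sgms2, a sphingomyelin synthase (2.98), Abcg4, a sterol transporter (2.97), and Tmem56 (2.92). Smim1, the carrier of the Vel blood group, was at 4.21 CPM in LSK and 29.8 CPM in MyePro (2.78). Aldh1a7 (2.87), Nxpe2 (2.74) and Slc26a1 (2.71) were also in this set.

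The 20 lowest ran from -8.37 to -3.21. Of them 0 were in those erythroid lists, which hold too few of all genes for that count to be informative. The 2 lowest were the antibody genes Igkc, with 742 counts in LSK and 0 in MyePro (lower by at least 328-fold, with the floor of 3 counts), and Igha, with 396 and 0 counts (at least 175-fold). Antibody light and heavy chains are made by B cells and plasma cells. Pax5, of B cells, was at 2 and 5 counts, and the source of the antibody reads was not tested. Then came Esam, Pglyrp2 (-4.50), Mecom, the lipoprotein receptor Vldlr (-4.36), the junction protein F11r (-4.06), Hlf and the collagen Col4a2, at 32.3 CPM in LSK and 2.25 CPM in MyePro (-3.75). The thromboxane receptor Tbxa2r (-3.30) and the guanylate cyclase Gucy1a3 (-3.21), both of platelets, were in the set too.

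Markers of other cells moved on the same side as the stem cell genes in part. Of 20 endothelial and stromal genes 7 passed, 4 were at least 2-fold lower (57.1%, against 6.87% of all genes) and 1 higher (14.3%, against 3.17%). The median was -1.42. The summed level of the 20 genes was 324 CPM in LSK and 155 CPM in MyePro. Col4a1 (-3.20), Tie1 (-2.66) and Sparc (-1.42) were lower, while Plvap was higher (1.16). Kdr had 23 and 21 counts and Col1a1 47 and 31. Of 25 T, NK and B cell genes 3 passed, and 20 of the others were under 1 CPM in both libraries. The list summed to 89.8 CPM in LSK and 32.4 CPM in MyePro, of which Igkc was 50.4 CPM in LSK. The part of such cells in the lower genes was not tested.

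The KO libraries enter the control comparison only through the TMM factors and the scaling of the prior count. With TMM over the 2 control libraries, 318 genes were higher and 676 lower in control MyePro. The same ratio was taken for KO LSK and KO MyePro cells, of the KO genotype given above. The KO libraries held 6130320 gene counts (LSK) and 11531994 (MyePro), with Dpy30 at 41.7 and 51.6 CPM. On the same 10074 genes 295 (2.93%) were at least 2-fold higher in KO MyePro and 159 (1.58%) lower, 4.51% in either direction, with a median of 0.01. Of the 319 genes higher in control, 145 were also 2-fold higher in KO (45.5% of the control set and 49.2% of the KO set), and 295 (92.5%) had a positive ratio. Of the 692 genes lower in control, 104 were 2-fold lower in KO (15.0% and 65.4%), and 461 (66.6%) had a negative ratio. On the higher side 0 genes were past 2-fold in the opposite direction, and on the lower side 45.

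**Figure D4:**
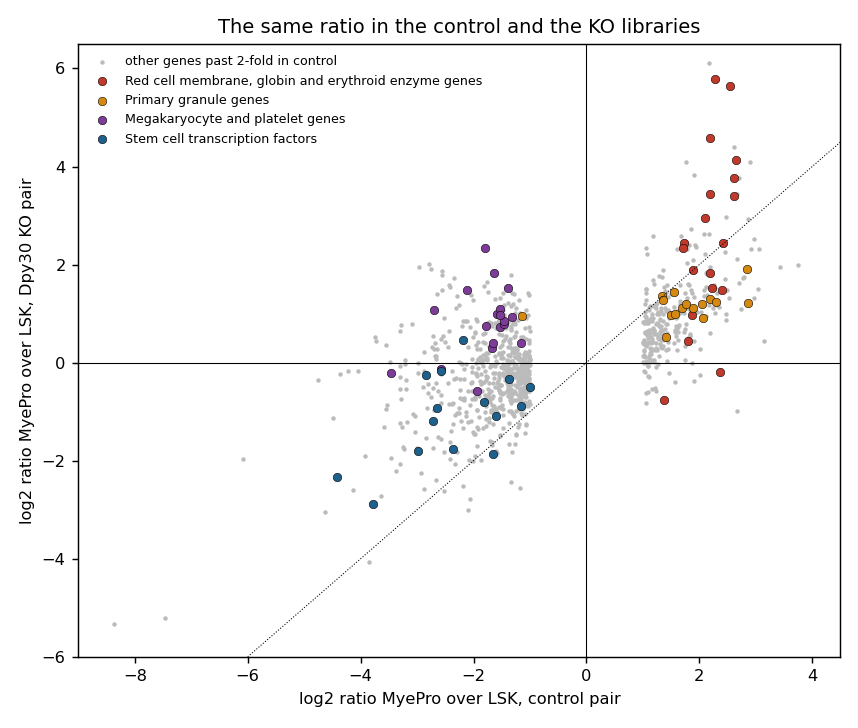
Log2 ratio of MyePro over LSK in the control pair (horizontal axis) and in the KO pair (vertical axis) for the genes at least 2-fold apart in control, 1 point per gene, with 4 lists in colour and a dotted line of equal ratios. Red cell genes lie on the higher side in both pairs with a few exceptions, and most megakaryocyte genes lie at negative ratios in control and positive ratios in KO.

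By list, the pairs stood side by side as follows. Red cell genes had a median of 2.14 in control and 1.86 in KO, from far lower KO levels: Rhd was at 0.298 CPM in KO LSK and 7.79 CPM in KO MyePro, Car1 at 20.7 and 227 CPM. Primary granule genes had medians of 1.52 and 1.05, and Elane was at 322 and 1203 CPM in KO. Stem cell transcription factors had medians of -1.37 and -0.50; Hlf was at 44.5 and 5.87 CPM in KO (-2.89), while Meis1 was at 85.2 and 76.0 CPM (-0.17). Stem cell surface genes had medians of -1.88 and -0.13. Ribosome biogenesis factors had a median of 0.47 in control and -0.06 in KO, where 26 of the 60 were positive. Megakaryocyte genes had a median of -1.56 in control and 0.90 in KO, where 19 of the 22 were positive; Pf4 was at 170 CPM in KO LSK and 602 CPM in KO MyePro. Library properties given at the end also went opposite ways in the pairs, and their part in this was not tested. With 1 library per genotype and population, none of these differences was tested.

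Control long-term stem cells (LT-HSC), the top of the LSK fraction, were sequenced in 2 libraries after amplification and are given without a ratio. Mecom was at 105 and 53.9 CPM there and Hlf at 292 and 135 CPM. Elane was at 13.6 and 152 CPM, Mpo at 40.2 and 146 CPM and Rhd at 1.27 and 3.07 CPM. Dntt was at 0.234 and 0.709 CPM and Igkc at 50.1 and 180 CPM.

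Library properties differed between the 2 control libraries, and in the KO pair several differed the other way. Reads with no annotated feature made up 6.25% of the file total in control LSK and 2.40% in control MyePro, but 3.83% in KO LSK and 5.86% in KO MyePro. The 10 most abundant genes took 11.0% and 6.62% of gene counts in control, and 7.48% and 12.0% in KO. The entry Gm26924 was at 54663 and 10743 CPM in control, and at 15397 and 51287 CPM in KO. The mitochondrial ribosomal RNAs mt-Rnr1 (-1.29) and mt-Rnr2 (-1.49) were lower in control MyePro and higher in KO MyePro (1.39 and 1.42), while the 12 other mitochondrial genes that passed had positive ratios. With genes divided into 4 equal groups by genomic span, the median ratio was 0.18, 0.13, 0.08 and -0.09 from the shortest to the longest. By mean level the median was -0.12, 0.06, 0.12 and 0.20 from the lowest to the highest of 4 groups, and 414 of the 692 lower genes were in the lowest. The part of these properties in the ratios was not tested.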

How the data were processed

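RNA-seq of sorted bone marrow cells was used: control LSK and MyePro, with the KO pair and 2 control LT-HSC libraries as descriptions. Genotype and cell type labels gave the groups. The authors deposited raw counts per gene, with a separate file for each library. Tools named in the submitters' processing notes include TopHat2 and HTSeq 0.6.0, with build mm10. Their roles, the annotation and the strandedness are not given in the sources, so antisense and overlapping genes and near-identical copies could share reads. Per the file entries, reads aligned to more than 1 place were 37.9% (LSK) and 33.4% (MyePro) of the file totals.

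Entries that name no gene and DPY30-SPKIG, which the labels do not explain (4961 and 1470 counts), were left out. TMM factors came from edgeR 4.0.16 (R 4.3.3) over the 4 LSK and MyePro libraries. Log2 ratios used a prior count of 2 and a minimum mean of 5 CPM; intervals are exact (Clopper-Pearson) at 95% and cover counting error only. Calculations were tested on simulated counts. LT-HSC files, keyed by Ensembl ID (96.0% of 39179 matched a symbol), were scaled apart. Symbols are those of the files. RefSeq positions and promoters are of GRCm38.p6.

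The comparison, the 35 lists, the 4 lists added later and the named genes were chosen with earlier results of these data known. The naming rule took Dpy30, Ly6a and Kit, the 20 highest and 20 lowest ratios averaging 10 CPM or more (leaving out ribosomal protein genes, pseudogenes and Gm or Rik symbols), up to 6 members per list past 2-fold or else the 2 with most counts, and any stem cell factor, granule gene, myeloid factor, receptor or fixed cell type marker. Other genes named were chosen after their values were seen. The ChIP samples and the KO LT-HSC libraries were not analysed here. Some named genes are not reported here.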

Additional observations from a re-analysis of the deposited data

Results flagged for a closer look

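Megakaryocyte and platelet genes stood on opposite sides in the 2 genotypes, with a median log2 ratio of MyePro over LSK of -1.56 in the control pair and 0.90 in the KO pair. The medians of the endothelial and stromal list also differed in sign, at -1.42 in control and 0.13 in KO, but in KO 4 of the 7 genes that passed were positive and 3 negative, and 0 of the genes lower by 2-fold in control were higher by 2-fold in KO. With lower filters on the mean CPM the control median was nearer to 0. In all, 45 genes were at least 2-fold lower in MyePro in the control pair and at least 2-fold higher in the KO pair. Of these, 7 were in the megakaryocyte list, which had 19 of the 692 genes lower in control. Reads with no feature (6.25% in LSK and 2.40% in MyePro in control, 3.83% and 5.86% in KO), the share of the 10 most abundant genes (11.0% and 6.62%, 7.48% and 12.0%), the entry DPY30-SPKIG (4961 and 1470 counts, 2426 and 11657) and both mitochondrial ribosomal RNAs also went opposite ways in the pairs, and their part in the result was not tested. With 1 library per genotype and population these differences were not tested.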

How the results depend on the processing

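No paired analysis was possible because each population had 1 library and the result comes from no test. For the same reason no library could be left out. With no filter on low counts 1035 genes were higher and 2527 lower in MyePro, and with a minimum mean of 1 CPM 1325 were lower (477 higher). Under the other settings, which were library totals, RLE, upper-quartile and 2-library TMM scaling, prior counts of 0.5 and 5, a minimum of 10 CPM, thinning of MyePro to the LSK depth and leaving out ribosomal RNA, mitochondrial and globin entries, the counts ran from 255 to 333 higher and from 466 to 755 lower. The median of the late neutrophil list turned positive with the 1 CPM filter (0.82), with no filter (0.41) and without the ribosomal, mitochondrial and globin entries (0.60). The median of the p53 targets was 0.30 with the 10 CPM filter and that of the sex-linked genes 0.01 with no filter, against -0.09 as reported. With library totals Cd82 (0.99), Gzmb (0.94), Gata1 (0.98) and Pglyrp1 (0.99) were under 2-fold, and with RLE factors Etv6 was (-0.99). Gzmb was also under it with upper-quartile factors (0.96), a prior count of 5 (0.97) and thinning (0.96), and Il5ra, with 6 and 3 counts, was past it with a prior count of 0.5 (-1.22). Over all settings, 43 list medians moved by more than the members' typical counting error and 385 did not. For single genes, 57 ratios moved past their own counting interval and 2405 did not. The 2405 include those under the changed filters, which cannot alter the ratio of a single gene, so they say nothing of stability.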

Other observations

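These 4 gene lists were put together after the values were seen. Of 14 genes of dendritic cells 10 passed, 9 were at least 2-fold lower in MyePro (90.0%, against 6.87% of all genes) and 1 was higher. The median was -2.77. Plbd1 was at 43.8 CPM in LSK and 5.48 CPM in MyePro (-2.96) and the dead-cell receptor Clec9a at 8.23 and 1.79 CPM (-2.11). Ciita, the switch of MHC class II genes, had 121 and 12 counts. The higher member was Zbtb46, a factor of classical dendritic cells that erythroid progenitors also express, at 8.43 and 29.2 CPM (1.77). The list took 0.141% of gene counts in LSK and 0.0295% in MyePro.

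Of the plasma cell list, the antibody genes were found almost only in the LSK library, while Sdc1 was found in both. Beside Igkc and Igha, the joining chain Igj had 151 counts in LSK and 0 in MyePro (at least 66.8-fold lower against 3 counts), and Iglc2 107 and 0 counts (at least 47.3-fold). Mzb1, of plasma cells, had 8 and 0 counts and Sdc1 60 and 75. Of the 11 genes found 3 passed the filter, and the 11 summed to 102 CPM in LSK and 4.30 CPM in MyePro. In the KO pair Igkc was at 44.9 and 0.963 CPM.

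All 31 proteasome subunits had positive ratios, from 0.14 to 0.65 with a median of 0.44, and so had the 17 subunits of mitochondrial protein import that passed (0.09 to 0.80, median 0.54). The median over all genes was 0.08, and it was 0.20 in the most highly expressed of 4 equal groups of genes. In the KO pair the list medians were 0.15 and 0.13.

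The core letters of the cell cycle homology region, TTTGAA, were in 36 of 46 promoters of the mitosis genes (78.3%) against 17.9% of all promoters, and CCAAT in 34 of 46 (73.9%) against 37.4%, in a list whose levels were near equal in the 2 populations. GAGGAA was in 11 of 21 promoters of the megakaryocyte list (52.4%) against 28.3% of all. Both libraries lacked Xist (2 and 3 counts) and held the Y-linked Ddx3y at 42.9 and 37.4 CPM.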
